A study of Mus musculus with 10 samples.

Results

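Ccl3 and Ccl4, also known as MIP-1α and MIP-1β, are 2 small secreted CC chemokines. Here they were followed through 45472 CD45+ brain immune cells of mice, as 2 of the 31053 genes of a single-cell RNA count matrix. Both were picked by name, with earlier results of these data known. They act on chemokine receptors of myeloid cells and lymphocytes, among which Ccr1 binds Ccl3. In microglia and other myeloid cells their transcripts are made quickly after stimulation, through the same NF-κB and immediate early responses that induce Tnf and Il1b, and cytotoxic lymphocytes make them as well. Microglia dissociated from the brain are known to induce such transcripts during isolation.

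Each of the 10 libraries was a pool of CD45+ cells sorted from the whole brains of 3 littermates, 2 males and 1 female. WT and NLRP3.KO mice were taken at 3, 6 and 9 months of age, and APP/PS1 and APP/PS1 NLRP3.KO mice at 3 and 9 months. APP/PS1 mice carry neuronal transgenes for mutant human APP and PS1 and form amyloid plaques, NLRP3.KO mice lack Nlrp3 in the whole body, and WT and NLRP3.KO mice without the transgenes are called non-diseased. All brains were dissociated in the cold with the transcription inhibitor actinomycin D, and each genotype had 1 library per age, so values at a single age have no replicate. By the batch column of the deposited cell annotation each age was its own batch, so that age and batch cannot be told apart.

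The deposited annotation placed 40547 of the cells in 6 microglial states, namely homeostatic microglia (HM), transitioning microglia (TM), interferon response microglia (IRM), immediate early gene microglia (IEG), disease-associated microglia (DAM) and proliferating microglia (PM). The other 4925 cells belonged to other immune types. Microglia numbered 1755 to 8208 per library with 9357431 to 35107144 unique molecular identifiers (UMIs, tags that each mark a captured RNA molecule). Of the cell barcodes, 246 occurred in more than 1 library. Nlrp3 had 0 UMIs in the microglia of all 5 libraries labelled as knockout and 34.4 to 53.7 CPM (counts scaled to a library total of 1e6) in the other 5. Microglia held the defining transcripts P2ry12 at 3183 CPM and Tmem119 at 1579 CPM. DAM held 1511 CPM of Cst7, a lysosomal protease inhibitor, against 12.9 CPM in HM, and IEG held 136 CPM of the early response factor Atf3 against 15.6 CPM in HM.

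Ccl3 (ENSMUSG00000000982.5) lies on the minus strand of chr11:83647844-83649355 and Ccl4 (ENSMUSG00000018930.3) on the plus strand of chr11:83662584-83664683 (GRCm38, the assembly also called mm10, GENCODE M21 annotation). The genes point away from each other, with 13.2 kb between their 5′ ends, and each has 3 exons and a coding length of 279 bases. Nlrp3 lies on the same chromosome, 24.1 Mb from Ccl3. As close relatives the 2 genes could exchange reads, so their coding sequences were aligned.

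Of 285 aligned coding positions 195 were identical (68.4%), the longest run without a difference was 9 bases, and 55 of 93 aligned residues were the same (59.1%). Counting in these libraries starts from the 3′ end of the transcript, and the last 300 transcript bases were 49.7% identical. A blastn search of the annotated transcripts found 0 other genes similar to either chemokine, so the counts of the pair could be told apart.

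Pooled over all libraries, both chemokines stood highest in IEG and next in DAM, and lowest in HM. Levels are CPM of the UMIs summed over the cells of a state, and each molecule counts once whatever its length. The states were clustered by the authors on the expression of these same cells, and Ccl4 is a marker shown for IEG, so levels between states are given as a description without a test. IEG held 753 CPM of Ccl3 and 1443 CPM of Ccl4. DAM held 299.6 CPM of Ccl3 and 205 CPM of Ccl4, in the reverse order. IRM followed with 58.5 and 110 CPM, and TM with 33.0 and 13.3 CPM. PM held 27.4 and 33.2 CPM, and HM held 14.1 CPM of Ccl3 and 7.82 CPM of Ccl4.

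The spread over the 10 libraries set how firmly this order could be read. Ccl4 in IEG ran from 280 to 2534 CPM (mean 1373 ± 844 SD, n = 10) and in HM from 3.75 to 12.04 CPM (mean 7.99 ± 2.53). Ccl3 in IEG ran from 243 to 1671 CPM (mean 749 ± 442) and in HM from 6.97 to 26.5 CPM (mean 15.99 ± 5.29). The ranges of IEG and HM did not overlap for either gene. TM, PM and IRM overlapped each other in both genes, and DAM, from 18.6 to 662 CPM of Ccl3 and 4.90 to 782 CPM of Ccl4, overlapped all of them. For Ccl4 the second place of DAM came from the APP/PS1 libraries, where it averaged 428 CPM. In the 6 non-diseased libraries DAM averaged 16.1 CPM of Ccl4 against 80.2 CPM in IRM.

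**Figure D1:**
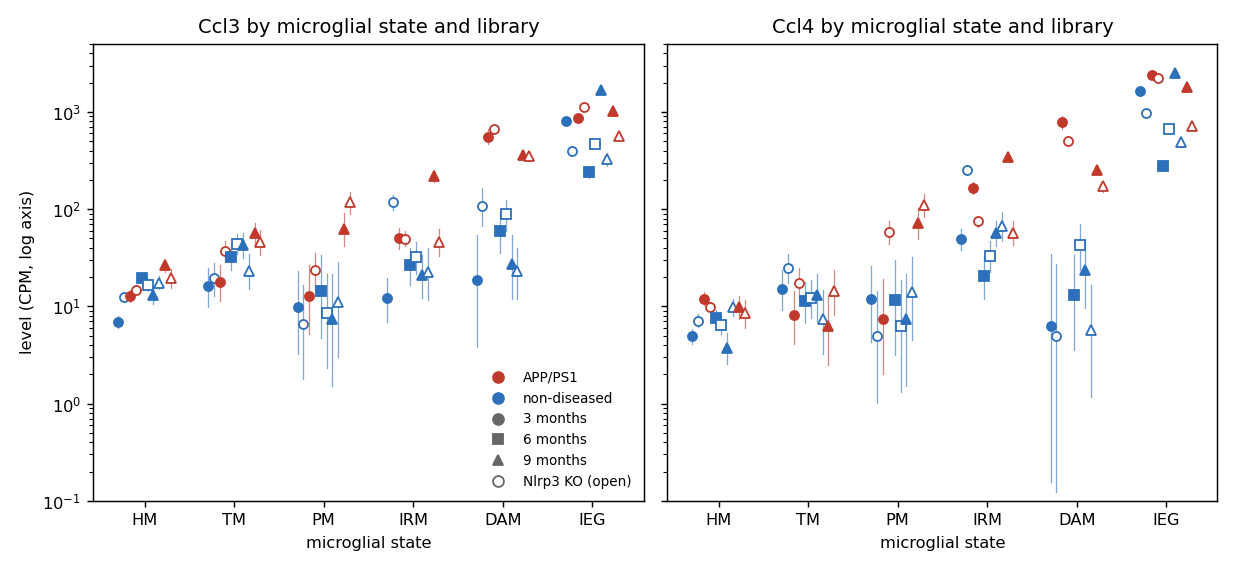
Levels of Ccl3 (left) and Ccl4 (right) in CPM on a log axis, by microglial state. Each point is 1 of 10 libraries, colour marks APP/PS1 against non-diseased libraries, shape the age and open symbols the Nlrp3 knockout; lines are exact 95% Poisson intervals, which cover counting error only. IEG points lie between 243 and 2534 CPM, whereas DAM points separate by colour.

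A UMI of Ccl3 was found in 7.13% of microglia and one of Ccl4 in 5.10%. In IEG these shares were 35.2% and 32.9%, in DAM 30.7% and 18.5%, and in HM 4.4% and 2.82%. B cells, taken for comparison as a type with little of either transcript here, gave 0.563% and 0.375% of 533 cells at a median of 4671 UMIs, against a median of 4506 UMIs in microglia. Thinned to 1500 UMIs per cell, so that depth was equal, 19.6% of IEG and 15.6% of DAM had Ccl3, and 21.2% and 8.66% had Ccl4. HM then had 1.79% and 0.983%.

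Summed over the libraries, most of the chemokine RNA of microglia sat in a small state. IEG made up 5.16% of the microglia and held 64.1% of their Ccl3 UMIs and 81.5% of their Ccl4 UMIs. DAM made up 2.22% and held 12.4% and 5.61%. HM made up 78.8% of the cells and held 14.7% of Ccl3 and 5.41% of Ccl4. The share in IEG was above that in DAM in 10 of 10 libraries for both genes. It ran from 35.7% to 83.0% of Ccl3 UMIs and from 61.2% to 92.5% of Ccl4 UMIs. In 3 libraries IEG held under 50% of the Ccl3 UMIs, namely WT at 6 months (35.7%), APP/PS1 NLRP3.KO at 9 months (43.0%) and NLRP3.KO at 9 months (45.9%). HM held 46.8% in WT at 6 months, more than IEG, and 41.3% in NLRP3.KO at 9 months.

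By the microglial annotation, the part held by DAM was higher in the APP/PS1 libraries. In the 6 non-diseased libraries DAM held 0.216% to 3.28% of the Ccl3 UMIs (median 2.44%), and in the 4 APP/PS1 libraries 9.19% to 39.3% (median 19.6%). For Ccl4 the corresponding ranges were 0.0389% to 1.23% and 4.90% to 22.3%. The groups did not overlap for either gene. DAM also made up 0.431% to 3.79% of non-diseased microglia and 0.778% to 11.7% of APP/PS1 microglia, and those ranges did overlap. Of all microglial UMIs DAM held 0.498% to 4.07% in non-diseased and 1.19% to 15.8% in APP/PS1 libraries, so its part of other genes could rise too. The share of all genes whose DAM part separated in this way is not given here, so the separation is a description. At 9 months, the DAM of APP/PS1 NLRP3.KO mice held nearly as much of the library's Ccl3 (39.3%) as its IEG (43.0%).

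**Figure D2:**
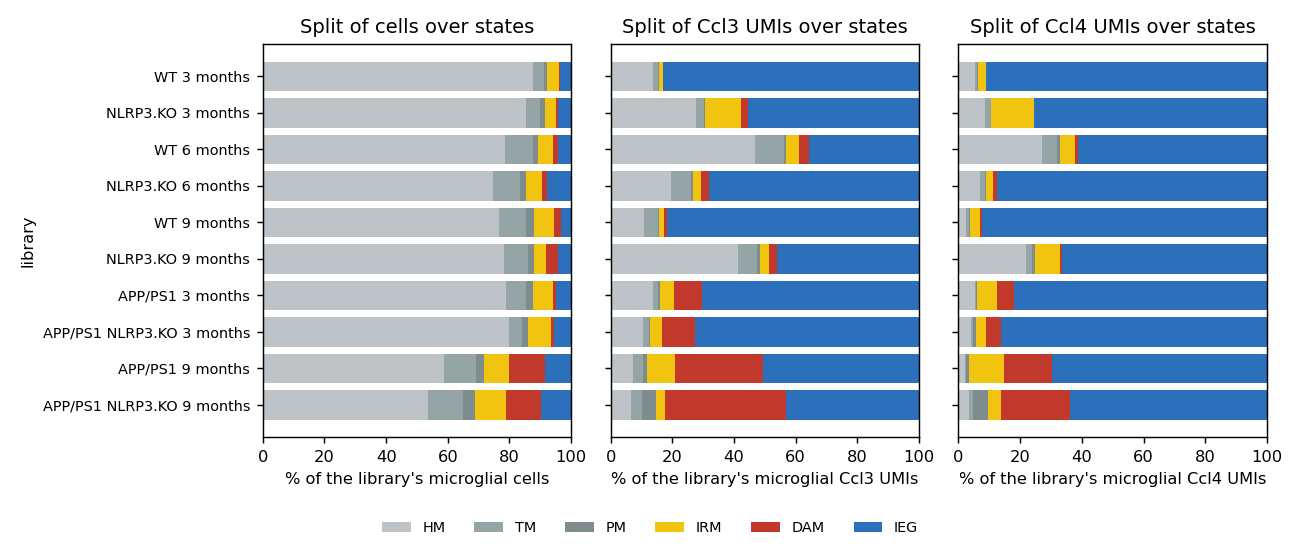
Split of each library's microglia (left), Ccl3 UMIs (middle) and Ccl4 UMIs (right) over the 6 states, in percent, 1 bar per library. IEG holds 35.7% to 83.0% of the Ccl3 UMIs with 3.36% to 9.74% of the cells, and the DAM part is visible mainly in the 4 APP/PS1 libraries.

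A second annotation, made on all CD45+ cells together, placed cells differently. It named 1237 microglia IEG, in place of 2094, and they held 1184 CPM of Ccl3 and 2354 CPM of Ccl4. Of the 2094 IEG cells of the microglial annotation it called 1118 IEG as well, and these held 1272 CPM of Ccl3 and 2544 CPM of Ccl4. The 531 that it called HM held 57.6 and 42.1 CPM, and the 355 that it called DAM held 173 and 137 CPM. The cells on which both annotations met were therefore the ones rich in the chemokines. By this annotation IEG held 60.9% of the Ccl3 and 80.3% of the Ccl4 UMIs of microglia, and DAM 15.9% and 6.89%. The order of the shares turned for Ccl3 in APP/PS1 NLRP3.KO at 9 months, where IEG held 29.7% and DAM 52.7%. By this annotation the part held by DAM overlapped between the groups, with 5.35% of Ccl3 and 1.20% of Ccl4 in APP/PS1 at 3 months against up to 8.89% and 2.28% in the non-diseased libraries.

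The balance of the 2 chemokines differed between IEG and DAM. IEG held 1.92 Ccl4 UMIs per Ccl3 UMI, DAM 0.684 and HM 0.556. IEG ran from 1.15 to 2.73 over the 10 libraries and DAM from 0.0455 to 1.402. The ratio was higher in IEG than in DAM in 10 of 10 libraries. Because the 2 genes may be captured with different efficiency, the ratio compares states and not the amounts of the 2 RNAs. Single cells showed the same order. Of the 466 IEG cells with UMIs of both genes, 61.6% had more Ccl4 and 25.5% more Ccl3 (median ratio 1.66), whereas of 119 such DAM cells 23.5% had more Ccl4 and 58.8% more Ccl3 (median ratio 0.684). The excess of Ccl4 did not hold for all of IEG. The 1118 IEG cells that the second annotation also called IEG held 2.0006 Ccl4 UMIs per Ccl3 UMI. The 531 that it called HM held 0.731, the 355 that it called DAM 0.794 and the 61 that it called TM 0.986. Ccl4 is also a marker shown for IEG, so the balance is a description of the clusters.

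**Figure D3:**
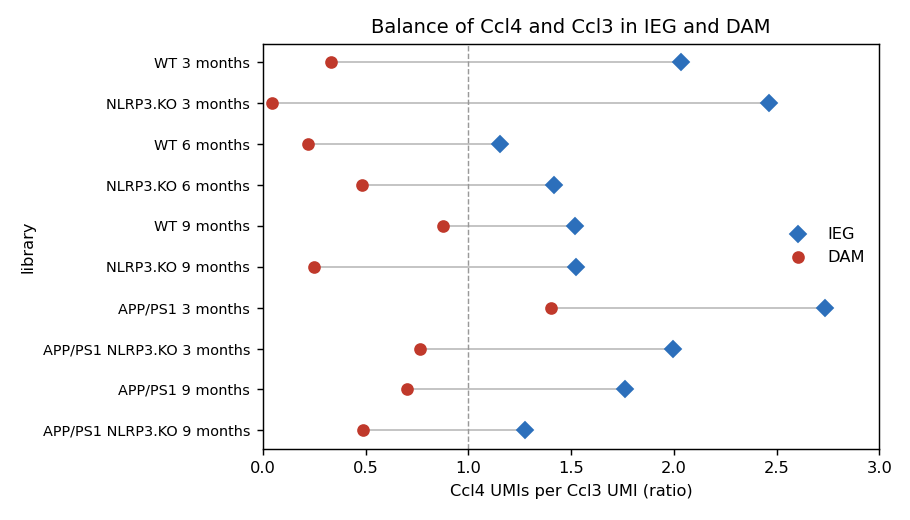
Ccl4 UMIs per Ccl3 UMI in IEG (blue diamonds) and DAM (red circles) of each library, with the dashed line at equal counts. IEG lies at 1.15 or above in the 10 libraries, and DAM lies below IEG in each; the DAM ratios of the 6 non-diseased libraries rest on 1 to 15 Ccl4 UMIs each.

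The 2 transcripts were often in the same cell. After thinning, 375 of 40547 microglia (0.925%) had both, where independent detection over all microglia would give 32.0 (11.7 times as many). Cells of 1 state share their levels of both genes, so the count was repeated within each state and library. In IEG 263 cells had both against 91.7 under independence (2.87 times), and in DAM 50 against 17.1 (2.92 times). HM had 24 against 5.89 (4.08 times), on few cells. Of thinned IEG cells with Ccl3, 64.0% had Ccl4, and 59.4% of those with Ccl4 had Ccl3. In DAM 35.5% of cells with Ccl3 had Ccl4, while 64.1% of cells with Ccl4 had Ccl3. At full depth 836 cells (2.06%) had both, and Pearson's r of their log2 UMIs was 0.774, a description over cells that share libraries and differ in depth.

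A few cells held most of the RNA. The richest 71 cells held 50% of the Ccl4 UMIs, and the richest 114 cells 50% of the Ccl3 UMIs. The highest cell had 342 Ccl4 UMIs, and the highest for Ccl3 had 219, whereas 62.8% of cells with Ccl4 and 60.4% of cells with Ccl3 had a single UMI. Cells with 10 or more UMIs of either gene, a limit set after the data were seen, numbered 375 (0.925% of microglia), and 204 of them passed it for both genes. Of these high cells 267 were IEG (71.2%), 65 DAM, 24 IRM, 7 HM, 7 TM and 5 PM. They were 12.8% of IEG but 0.0219% of HM. A doublet score over 0.5 was given to 15.7% of them and to 7.63% of all microglia, and high DAM cells had a median of 9288 UMIs against 5566 in other DAM; the part of doublets and depth in the high counts was not tested.

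**Figure D4:**
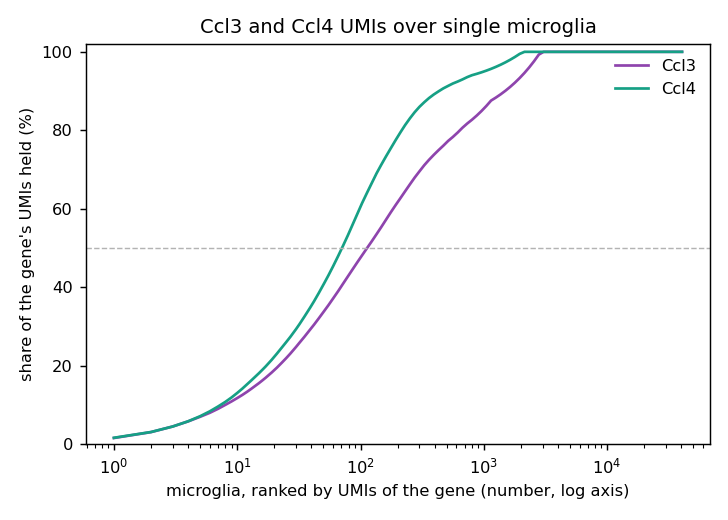
Share of all microglial UMIs of Ccl3 and Ccl4 (percent) held by the cells with the most, ranked by UMIs of the gene (log axis). The dashed line at 50% is crossed at 71 cells for Ccl4 and 114 cells for Ccl3, of 40547.

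High cells were more frequent in each APP/PS1 library than in any non-diseased one, at 1.24% to 2.68% of microglia against 0.257% to 0.850%. In DAM, 63 of 562 cells of APP/PS1 libraries were high, and 2 of 339 cells of non-diseased libraries. In IEG the ranges overlapped, with 10.5% to 20.9% of cells in APP/PS1 libraries and 5.88% to 22.8% in non-diseased libraries. The share of all genes that separated the libraries in this way is not given here, so the separation over all microglia is a description. High cells were not matched for depth. Median UMIs of DAM cells were 6185 to 8018.5 in APP/PS1 and 4691 to 5397 in non-diseased libraries. Over all microglia they were 3978 to 5985 and 4260 to 4732. The part of depth was not tested.

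The first comparison asked whether the chemokines of microglia change with amyloid pathology. Pairs were made of an APP/PS1 library and the non-diseased one that matched it in age and in Nlrp3, 4 in all. Over all microglia Ccl4 rose. With Nlrp3 present it stood at 169 CPM in APP/PS1 against 79.6 CPM in WT at 3 months, and at 246 against 118 CPM at 9 months. On the knockout background it stood at 179 against 68.4 CPM at 3 months and at 121 against 34.0 CPM at 9 months. It was higher in 4 of 4 pairs, by 2.08- to 3.57-fold, and the lowest APP/PS1 library lay just above the highest non-diseased one. The log2 fold change was 1.34 ± 0.13 SE (edgeR quasi-likelihood test, adjusted p = 0.0282, called where adjusted p was under 0.05 and the fold over 2). Of 12282 genes, 5 were called (0.0407%), Ccl4 among them.

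Ccl3 moved by as much but varied more. It stood at 72.2 CPM in APP/PS1 against 43.0 CPM in WT at 3 months, and at 191 against 88.0 CPM at 9 months. In the pairs without Nlrp3 it stood at 106 against 37.7 CPM and at 141 against 32.2 CPM. It was higher in 4 of 4 pairs, by 1.68- to 4.37-fold, yet the groups overlapped, because WT at 9 months exceeded APP/PS1 at 3 months. Its log2 fold change of 1.37 ± 0.20 did not pass the test (edgeR, adjusted p = 0.123). Without the 9 months pair with Nlrp3 the adjusted p of Ccl3 was 0.0393. The call of Ccl4 was kept without that pair and lost without the 3 months pair with Nlrp3 (0.0872), the 3 months knockout pair (0.194) or the 9 months knockout pair (0.0513), and lost with age and Nlrp3 genotype as additive covariates in place of pairs (0.246). DESeq2 called both genes over all microglia. In bulk sums of this kind, more cells with a transcript and more transcript per cell cannot be told apart, so shares and states were examined next.

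The share of microglia with a UMI, thinned to 1500 UMIs, was higher in 4 of 4 pairs for both genes. Ccl3 was found in 3.11% and 3.36% of microglia in the 3 months APP/PS1 libraries and in 6.92% and 7.58% at 9 months, with 1.61% to 3.53% in their non-diseased partners. Ccl4 was found in 2.90% to 4.75% against 1.502% to 2.305%. The mean difference was 2.69 percentage points for Ccl3 (SD 1.67, n = 4 pairs), 1.82 for Ccl4 (SD 0.802) and 1.23 for cells with both (SD 0.580). Each had p = 0.125 in the exact two-sided sign-flip permutation test, also after adjustment over the 3 shares, which is the smallest p that 4 pairs allow. Without thinning, Ccl3 was found in 6.79% to 16.4% of microglia of APP/PS1 libraries and in 3.42% to 8.26% of the 6 non-diseased ones.

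**Figure D5:**
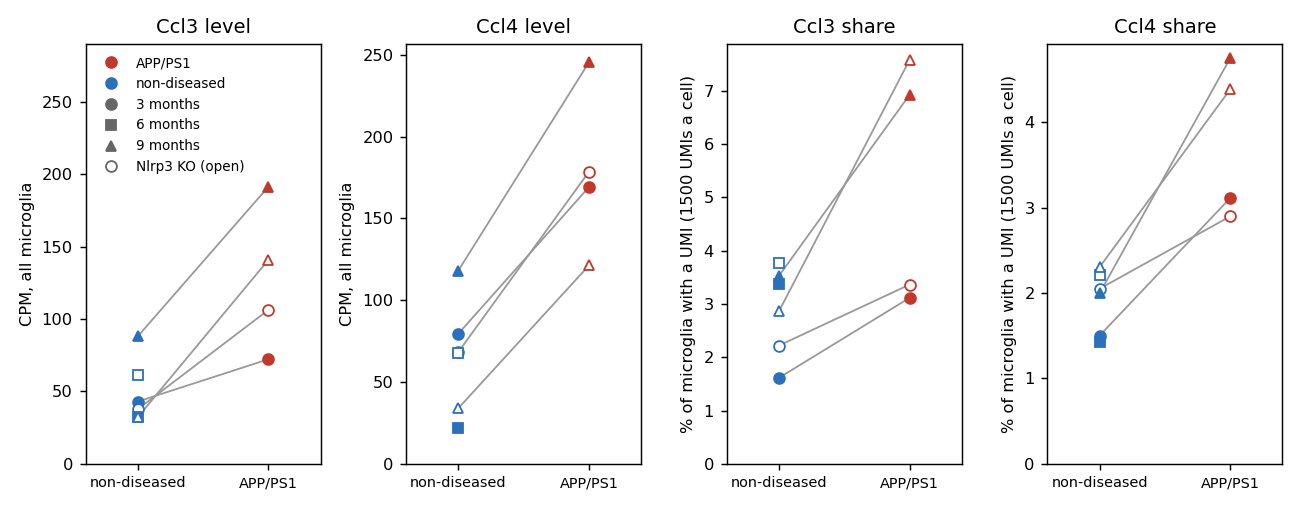
Ccl3 and Ccl4 in all microglia of each library, as CPM (2 left panels) and as the percent of cells with a UMI after thinning to 1500 UMIs (2 right panels), on linear axes from 0. Grey lines join the 4 pairs of the same age and Nlrp3 genotype, and each line rises; the unjoined squares are the 6 months libraries.

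By state, the difference was not found at a similar size everywhere. Within HM, the log2 fold change was 0.55 ± 0.14 for Ccl3 (higher in 4 of 4 pairs) and 0.73 ± 0.21 for Ccl4 (higher in 3 of 4), and neither passed the test (edgeR, adjusted p = 0.900 for both). No gene of 11887 was called within HM (0%), with 544 at an unadjusted p under 0.05 and 0 called by DESeq2. Within IEG the values were 0.43 ± 0.21 and 0.47 ± 0.17, higher in 3 of 4 pairs (edgeR, adjusted p = 0.994 for both), where 2 of 8914 genes were called (0.0224%), Ifitm3 of the interferon response list and Ifi27l2a, an interferon-inducible gene outside the lists. The pair of 9 months with Nlrp3 went the other way in IEG, with 1671 CPM of Ccl3 in WT against 1023 in APP/PS1 and 2534 against 1803 CPM of Ccl4. WT at 9 months had 79 IEG cells, the fewest. Without this pair, the log2 fold change in IEG was 0.82 ± 0.14 for Ccl3 (edgeR, adjusted p = 0.000447) and 0.80 ± 0.12 for Ccl4 (edgeR, adjusted p = 2.99e-05), both still under the fold limit. Without the 3 months knockout pair it was 0.05 for Ccl3 (edgeR, adjusted p = 0.997) and 0.21 for Ccl4 (edgeR, adjusted p = 0.997), so single pairs moved the values of IEG in both directions. With IEG taken from the second annotation it was 0.67 ± 0.15 for Ccl3 (edgeR, adjusted p = 0.209) and 0.76 ± 0.10 for Ccl4 (edgeR, adjusted p = 0.000906). With no filter on low counts the adjusted p of Ccl4 was 0.00363 (edgeR), and in both settings Ccl4 was again under the fold limit. DESeq2 on the IEG sums of the microglial annotation gave 0.44 ± 0.45 for Ccl3 and 0.47 ± 0.33 for Ccl4 (Wald test, adjusted p = 0.9996 for both). In microglia other than IEG and DAM the log2 fold change was 0.91 ± 0.21 for Ccl3 (edgeR, adjusted p = 0.454) and 1.12 ± 0.34 for Ccl4 (edgeR, adjusted p = 0.630). There 0 of 12208 genes were called (0%), with 771 at an unadjusted p under 0.05 and 3 called by DESeq2. Among these states, PM held 12.9 to 117 CPM of Ccl3 in APP/PS1 libraries against 6.54 to 11.1 CPM in their partners. Ccl3 was higher in 4 of 4 pairs in PM and TM and in 3 of 4 in IRM. Ccl4 was higher in 3 of 4 pairs in PM, 1 of 4 in TM and 2 of 4 in IRM. Non-diseased PM held 3 to 5 Ccl3 UMIs per library, and these 3 states were not tested alone.

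Within DAM both chemokines were far higher in APP/PS1 libraries. Ccl3 stood at 558 and 662 CPM in the 3 months libraries and at 361 and 351 CPM in the 9 months libraries of APP/PS1 and APP/PS1 NLRP3.KO mice. Their non-diseased partners held 18.6, 108, 27.3 and 22.8 CPM. Ccl4 stood at 782, 506, 254 and 171 CPM against 6.21, 4.90, 23.9 and 5.71 CPM. The groups did not overlap, and both genes were higher in 4 of 4 pairs. The share of all genes in DAM that separated in the same way is not given here, so this separation is a description. The log2 fold change of Ccl3 was 3.71 ± 0.24 (edgeR, adjusted p = 4.91e-11), where 182 of 6331 genes were called (2.87%). The fit of Ccl4 is not given, since its non-diseased partners held 1, 1, 7 and 3 UMIs, and it passed the filter on low counts through the APP/PS1 libraries alone. This fit was added after the values of DAM were seen, so its p is no independent support.

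The non-diseased side of that comparison was thin. Summed over the 4 pairs, 562 DAM cells of APP/PS1 libraries held 1646 Ccl3 UMIs and 225 non-diseased DAM cells held 45, a ratio of CPM of 10.9 (95% interval 8.11 to 15.0, counting error only). Ccl4 had 1159 UMIs against 12, a ratio of 28.8 (16.4 to 55.9), with ratios of 10.6 to 126 in single pairs. The share of DAM with Ccl3 was 35.2% to 51.8% in APP/PS1 libraries and 8.11% to 18.2% in the 6 non-diseased ones, and that with Ccl4 was 20.6% to 45.8% against 2.70% to 15.3%. DAM was named from the expression of the cells, and the DAM of the groups differed in much else. In the same fit 16 of 22 tested disease-associated genes were called higher in APP/PS1. Their log2 fold changes included 4.68 for Lpl, a lipoprotein lipase, 4.12 for Cst7, 2.48 for Itgax and 1.79 for the lipid carrier gene Apoe. Csf1, a growth factor gene of the NF-κB inducible list, stood at 2.44. Of that list 1 of 12 tested genes was called higher, where 2.87% of all genes were called. The median log2 fold change of the list was -0.27, and 4 of the 12 genes had a positive value. The part of this difference in the make-up of DAM in the chemokine values was not tested. With DAM taken from the second annotation, the fit gave a smaller log2 fold change of 2.59 for Ccl3.

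Each pair's difference in CPM over all microglia was then split by state. IEG contributed 15.1 to 56.2 CPM of the rise in Ccl3 and 54.8 to 102.4 CPM of the rise in Ccl4. DAM contributed 6.54 and 10.7 CPM of Ccl3 at 3 months but 53.6 and 54.4 CPM at 9 months. HM, with most of the cells, added between -4.02 and 4.99 CPM. At 9 months with Nlrp3, 11.5% of the Ccl3 difference and -2.22% of the Ccl4 difference came from levels within states and the rest from the make-up of the states. In the other 3 pairs levels within states gave 42.1% to 73.8%. The split used the microglial annotation alone, clustered on these same cells, and Ccl4 is a marker shown for IEG. Its 2 parts therefore depend on the labels and are a description. In the 9 months pair with Nlrp3, IEG held 4.31% of all microglial UMIs in WT and 9.48% in APP/PS1. By the second annotation it held 2.92% and 3.27%.

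The second comparison asked whether loss of Nlrp3, a sensor protein of the inflammasome, changed the chemokines. Over all microglia of 5 pairs, the log2 fold change was -0.09 ± 0.29 for Ccl3 (edgeR, adjusted p = 0.9997) and -0.28 ± 0.40 for Ccl4 (edgeR, adjusted p = 0.957). Each gene was higher in the knockout in 2 of 5 pairs, and 3 of 12383 genes were called (0.0242%), Nlrp3 itself among them. The pairs differed widely. At 6 months Ccl4 stood at 67.7 CPM in NLRP3.KO against 21.7 CPM in WT, and at 9 months at 34.0 against 118 CPM. These levels rested on few cells. Without cells of 10 or more Ccl4 UMIs they were 12.5 against 11.1 CPM at 6 months and 16.4 against 13.3 CPM at 9 months. Without the non-diseased pair of 9 months the log2 fold change was 0.20 for Ccl3 and 0.05 for Ccl4. After thinning, Ccl3 was found in 3.96% of knockout and 3.71% of Nlrp3 WT microglia on average, a difference of 0.249 percentage points (SD 0.536, higher in 4 of 5 pairs). The difference was 0.212 for Ccl4 (SD 0.491, 3 of 5 pairs) and -0.108 for cells with both (SD 0.455, 2 of 5 pairs). None passed the exact permutation test (adjusted p = 0.625 for each share, with 0.0625 the smallest raw p that 5 pairs allow). Thinned to 3000 UMIs the difference was 0.544 percentage points for Ccl3 (4 of 5 pairs) and 0.543 for Ccl4 (SD 0.446, 5 of 5 pairs; exact permutation p = 0.0625, adjusted p = 0.1875).

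The amyloid effect was compared between backgrounds by the interaction term. It was larger without Nlrp3 by 0.88 ± 0.25 on the log2 scale for Ccl3 and by 0.54 ± 0.18 for Ccl4 (edgeR, adjusted p = 0.994 for both). Against 3 months it was larger at 9 months by 0.55 ± 0.37 for Ccl3 (edgeR, adjusted p = 0.880) and 0.26 ± 0.26 for Ccl4 (adjusted p = 0.908). In each of these tests 0 of 12282 genes were called by edgeR (0%), with 446 and 601 at an unadjusted p under 0.05 and 6 called by DESeq2 in each.

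Of the receptors examined, Ccr1 was low in HM, at 10.6 CPM, and higher in Lyve1 border-associated macrophages, at 277 CPM. Ccr3 stood at 1.79 CPM in HM and Ackr2, a scavenging receptor, had 0 UMIs there.

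The related gene lists were read beside the chemokines. In all microglia of APP/PS1 mice, 3 of 23 tested disease-associated genes were called higher, namely Gpnmb, a transmembrane glycoprotein gene, Ch25h, the cholesterol 25-hydroxylase gene, and Baiap2l2 (log2 fold changes of 5.82, 3.53 and 3.80, median log2 fold change of the list 0.92, against 0.003 over all genes tested). With 0.0407% of all genes called, a count of 0 in a short list is at the background, and none was called in 24 immediate early genes (median 0.23), 19 NF-κB inducible genes (median 0.07), 9 other CC chemokines (0.06), 5 CXC chemokines (0.61), 3 receptors (0.10), 10 heat shock genes (-0.09), 13 homeostatic genes (-0.05) or 10 interferon response genes (0.54). Between Nlrp3 genotypes 0 genes of these lists were called, where 0.0242% of all genes were. Within DAM, Ccl6 rose by 1.46 ± 0.20 and Cxcl16, a membrane-bound chemokine, by 1.30 ± 0.24, whereas Ccl12 fell by 1.92 ± 0.35 on the log2 scale. Of 13 tested immediate early genes in DAM, Atf3 was the one called (1.75 ± 0.41), and the median of the list was -0.24; with 2.87% of all genes called there, 1 call in a list of this size is little above the background.

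Cells with the chemokines differed from cells of the same state without them, in part alike in IEG and DAM. In IEG, 591 thinned cells with either transcript held 4313 CPM of immediate early RNA against 2484 CPM in 1503 cells without (1.74 times, higher in 10 of 10 libraries), and NF-κB inducible RNA was 1.87 times as high (10 of 10). The disease-associated list stood at 1.003 times. In DAM, 169 cells with either transcript held 1.31 times the disease-associated RNA (higher in 6 of 8 libraries with at least 5 such cells) and 0.963 times the immediate early RNA (higher in 2 of 8), and NF-κB inducible RNA was 1.21 times as high (6 of 8). RNA of the other CC chemokines was higher in both, at 1.65 times in IEG (8 of 10 libraries) and 1.46 times in DAM (7 of 8). So was heat shock RNA, at 1.16 times in IEG (9 of 10) and 1.21 times in DAM (7 of 8). RNA of the receptor list stood at 1.08 times in IEG (higher in 7 of 10) and 0.672 times in DAM (higher in 0 of 8). Homeostatic RNA was lower in the cells with a chemokine, at 0.905 times in IEG (10 of 10 libraries) and 0.851 times in DAM (8 of 8). These values are descriptions, since the clustering used the same genes.

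In HM, the test of cells with against cells without either transcript (861 and 31092 cells after thinning, library as block) called 4 of 9359 genes (0.0427%). Lyrm2, a gene of a mitochondrial protein family, was lower in 10 of 10 libraries, at 21.6 ± 11.2 against 41.2 ± 3.67 CPM (log2 fold change -1.04 ± 0.26, edgeR, adjusted p = 0.0282), but was called in 8 of 15 alternatives. The other 3, named after their values were seen, did not change the same way in every library. Egr1, an immediate early factor, was higher in 8 of 10 libraries (1.39 ± 0.23), Lpl in 7 of 10 (1.59 ± 0.30) and Gm26737 in 2 of 10. Apoe was raised by 0.46 ± 0.07 (edgeR, adjusted p = 4.20e-08) without passing the fold limit. DESeq2 called 0 genes here, with 368 at an unadjusted p under 0.05, and edgeR had 633 at an unadjusted p under 0.05.

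Genes whose levels most resembled each chemokine were ranked by Pearson's r of log2(CPM + 1) over 60 sums per library and state, among 9440 genes. Each chemokine was the closest match of the other (r = 0.909). After Ccl4, Ccl3 was most like Cd9 (0.903), Cd63 (0.886), Mif (0.866), Ctsb (0.857), Csf1 (0.855), Cd83 (0.832), Cd68 (0.824), Aldoa (0.821) and Itgax (0.816). Ccl4 was most like Csf1 (0.875), Ldha (0.858), Cd9 (0.848), Plaur (0.814), Mif (0.804), Gpr84 (0.789), Apbb2 (0.765), Cd83 (0.765) and Atf3 (0.764). The sums share libraries and states, so these are descriptions.

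Outside microglia, the highest Ccl4 was in NK cells and the highest Ccl3 in the small group labelled mast cells and basophils. NK cells (548 cells, with Ncr1 at 693 CPM and Gzma at 3509 CPM) held 174 CPM of Ccl3 and 791 CPM of Ccl4, in 20.1% and 53.5% of cells. Over the 7 libraries with at least 20 NK cells, Ccl4 ran from 309 to 1789 CPM and Ccl3 from 25.9 to 261 CPM, and Ccl4 exceeded Ccl3 in 7 of 7. Mast cells and basophils (28 cells) held 1517 CPM of Ccl3 and 529 CPM of Ccl4, in 78.6% and 67.9% of cells, too few to compare by library. Lineage markers for this type were not among the lists checked.

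T cells (1598 cells) held 12.3 CPM of Ccl3 and 85.8 CPM of Ccl4, found in 4.13% and 23.8% of cells. Their Ccl4 ran from 25.7 to 654 CPM, with the highest value in the 27 T cells of WT at 3 months, and exceeded Ccl3 in 10 of 10 libraries. Border-associated macrophages outside the Lyve1 group (725 cells) held 73.0 and 135 CPM, and the Lyve1 group (382 cells) held 38.4 and 11.7 CPM. NKT cells held 0.855 and 16.3 CPM. B cells, neutrophils and ILC2 were each under 2 CPM in both genes. The microglial transcripts P2ry12, Tmem119 and Sall1 together stood in B cells at 7.19% of their microglial level, which would carry 5.20 CPM of Ccl3 and 7.85 CPM of Ccl4 from average microglia, above the 0.856 and 0.571 CPM measured. Reckoned likewise, the Lyve1 group would carry 6.33 CPM of Ccl3 and 9.55 CPM of Ccl4. The same reckoning gave more than was measured in B cells, so the part of such RNA in the Lyve1 group was not tested.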

How the data were processed

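CD45+ brain cells of 10 libraries were profiled with 10x Genomics 3′ single-cell RNA sequencing. Per the labels, reads were processed with Cell Ranger against mm10. The authors filtered outlier cells on depth, genes and mitochondrial share, clustered the microglia after harmony correction and deposited raw UMI counts per gene and cell without normalization, with 1 annotation of the microglia and 1 of all CD45+ cells. The authors also deposited a doublet score and a percent of mitochondrial UMIs for each cell, of which the score set an alternative. Groups came from the genotype and age in the labels; 2 sample names of the matrix that the labels do not give (6897 cells) were not used.

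Counts were summed per library over all microglia or over a state. Levels are CPM of those sums with exact 95% Poisson intervals, and shares are percent of cells with a UMI, with exact binomial intervals; both cover counting error only. Shares were compared after drawing 1500 UMIs from each cell (0 microglia were shallower). Sums were tested with edgeR 4.0.16 (filterByExpr, TMM, glmQLFit and glmQLFTest, R 4.3.3) with the pair as a block, Benjamini-Hochberg adjustment over all genes tested, and a call at adjusted p under 0.05 and absolute log2 fold change over 1; SE is the absolute log2 fold change divided by the square root of F. Each library is a pool of 3 mice, so the spread between single mice is not measured. The edgeR fit estimates the spread between pools with information shared over genes, so its SE and p do not measure the spread of 1 gene alone. For Ccl3 the SD of the log2 ratios over the 4 amyloid pairs was 0.95 in IEG and 0.94 in DAM, beside edgeR SEs of 0.21 and 0.24. The fits were tested on simulated counts before use. Sequences and coordinates came from the GENCODE M21 transcripts and annotation of GRCm38, aligned with Biopython 1.88. Tables and tests over pairs used Python 3.11.15 with numpy 2.4.6, pandas 2.3.3 and scipy 1.17.1, and plots used matplotlib 3.10.9.

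Alternatives were DESeq2 1.42.0, its size factors, no filter on low counts, no thinning or 3000 UMIs, log odds, age and genotype as additive covariates, the adjusted p alone, cells without a doublet score over 0.5, the annotation of every CD45+ cell and each pair left out. The fit of DAM alone, the leaving out of barcodes found in 2 libraries and the limit of 10 UMIs for high cells were added after seeing the data. Named genes are the 2 chemokines, their receptors, called genes of the lists, the 10 called genes of largest fold in HM that moved alike in every library and the 10 most alike in level; others were named after their values were seen. The members and the lists were chosen with earlier results of these data known. Clec7a, of the disease-associated list, was not analysed here. Some of the results computed are not reported here.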

Additional observations from a re-analysis of the deposited data

Results flagged for a closer look

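Single libraries that stood far from the rest of their group were looked for in 58 groups of 4 to 6 libraries (state, chemokine and measure, by amyloid genotype), and 6 were found, where chance gives about 1 in 20. In IRM, APP/PS1 at 9 months held 220 CPM of Ccl3 against 45.7 to 49.98 CPM in the other 3 APP/PS1 libraries. Also in IRM, NLRP3.KO at 3 months held 118 CPM of Ccl3 and 253 CPM of Ccl4, against 12.2 to 32.2 and 20.4 to 67.9 CPM in the other 5 non-diseased libraries. In IRM, 7 cells held 50% of the UMIs of either gene. After thinning, 26.8% of IEG of APP/PS1 at 3 months had a Ccl3 UMI, against 22.0% to 22.8% in the other APP/PS1 libraries. In TM, 2.49% of cells of APP/PS1 at 3 months had a Ccl3 UMI (3.45% to 3.60% in the others), and 2.53% of cells of APP/PS1 NLRP3.KO at 9 months had a Ccl4 UMI (1.35% to 1.49% in the others).

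The Nlrp3 effect over all microglia pointed opposite ways at 2 ages. At 6 months the log2 ratio of NLRP3.KO over WT was 0.93 for Ccl3 and 1.64 for Ccl4, from 1 pair. At 9 months both pairs were lower in the knockout, with -1.45 and -0.44 for Ccl3 and -1.80 and -1.02 for Ccl4. The difference between ages was not tested. A few cells carried these levels, with 50% of the Ccl4 UMIs in 5 to 8 cells of each non-diseased library of these ages. Without cells of 10 or more UMIs of the gene, Ccl3 was 25.1 CPM in NLRP3.KO against 24.8 CPM in WT at 6 months. At 9 months it was then 24.0 against 19.5 CPM, and 61.4 against 54.1 CPM in the APP/PS1 pair. Ccl4 was 12.5 against 11.1 CPM at 6 months, and 16.4 against 13.3 and 34.8 against 31.7 CPM at 9 months.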

How the results depend on the processing

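Of 259 alternative values 244 kept their direction and their side of the threshold, or stayed within the limits of a value without a test. The shares among them could change direction but not side, since their smallest exact permutation p was 0.0625 or more. For the amyloid effect over all microglia, the DESeq2 Wald test gave 1.39 for Ccl3 (adjusted p = 0.00304), which was then called, and age and Nlrp3 genotype as additive covariates gave 1.32 for Ccl4 (edgeR, adjusted p = 0.246), which was then not called; the cause was not tested. Leaving out each pair gave 1.12 to 1.59 for Ccl3 and 1.18 to 1.44 for Ccl4, with fewer samples. For Nlrp3 it gave -0.35 to 0.20 for Ccl3 and -0.70 to 0.0506 for Ccl4. The difference between Nlrp3 genotypes in the share of microglia with both transcripts turned to 0.151 percentage points without thinning and to 0.0380 on the log odds scale. In HM with against without a transcript, DESeq2 called 0 genes, no filter 7 and no thinning 7. Ccl4 in IEG was 2354 CPM by the annotation of every CD45+ cell, and 2.06% of microglia had both transcripts without thinning. DESeq2 called 22 genes over all microglia against 5, 65 in DAM against 182, 1 in IEG against 2 and 6 between Nlrp3 genotypes against 3; with a pair left out these counts ran from 0 (without either knockout pair) to 11 (without the 9 months pair with Nlrp3) over all microglia, from 125 to 191 in DAM, from 1 to 7 in IEG, from 0 to 4 in HM (3 without the 3 months and 4 without the 9 months pair with Nlrp3), from 0 to 8 in microglia other than IEG and DAM (8 without the 9 months pair with Nlrp3) and from 2 to 8 (without the 9 months non-diseased pair) between Nlrp3 genotypes. Without the barcodes found in 2 libraries, no share changed its direction, and its side of the threshold could not change. The log2 fold change of Ccl3 in DAM ran from 2.59 to 4.20 over the 9 alternatives tried there. With 4 pairs the permutation test of a share cannot go below p = 0.125 (exact), and the 225 DAM cells of the paired non-diseased libraries held 12 Ccl4 UMIs, which limits the fold there.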
